A study of Caenorhabditis elegans with 3 samples.

Results

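EGL-27 peaks were examined at 10 genes of the body-size TGF-beta pathway of Caenorhabditis elegans: the ligand gene dbl-1, lon-2, sma-10, the receptor genes daf-4 and sma-6, the Smad genes sma-2, sma-3 and sma-4, and sma-9 and lon-1. The genes are a fixed list, chosen with earlier results of these data known, among 19973 protein-coding genes of the nuclear genome. A peak was counted for a gene when its summit lay in the gene body or within 5000 bp of any of its transcript starts, so what is described was selected on peak positions in these same lists, and no test was made on them. The windows of the 10 genes held 52 peaks in the 3 single-library lists, 45 in the pooled list and 1 in the reproducible list.

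The data are chromatin immunoprecipitation followed by sequencing (ChIP-seq) of EGL-27 in whole L4 larvae, the last larval stage, in 3 libraries that the labels number as biological replicates 1, 2 and 4. All 3 came from strain OP177, whose genotype is given as unc-119(ed3) III with the transgene wgIs177, a stable line with a GFP-FLAG tag at the C-terminus of EGL-27. The sexes were mixed and the exact age is unknown. The unc-119 background and the transgene are thus common to all libraries, the antibody is labelled egl-27 and chromatin was sheared by sonication. The sources used here name neither the promoter that drives the transgene nor the number of animals per library, and there is no second condition. Peaks in whole animals cannot be assigned to a tissue. EGL-27 is related to the MTA subunits of the NuRD chromatin remodelling complex.

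The pathway resembles vertebrate BMP signalling. DBL-1 binds a pair of receptors, which activate Smad proteins that enter the nucleus and regulate genes. Loss of signalling makes small (Sma) animals, and loss of its negative regulators makes long (Lon) ones. Much of its effect on body size runs through the hypodermis, the epithelium that secretes the cuticle.

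The 3 single-library lists held 9666, 13686 and 6636 peaks for replicates 1, 2 and 4, the pooled relaxed list 30000 and the reproducible list, made by the irreproducible discovery rate (IDR) procedure, 102. Signals are the authors' deposited values, and the sources used here do not state their scale, so peaks are described by their rank by signal within a list. Read depth is unknown, and the deposited names of the relaxed lists say that they hold background as well as peaks. Of the peaks of replicate 2, 23 lay on the mitochondrial genome, which the lists of the other libraries did not contain. The lists of different libraries had between 2 and 11 identical summit positions, so each library was counted as its own sample.

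Peaks of some kind were found at every one of the 10 genes, but a reproducible peak was found at sma-9 alone. In the pooled list 10 of 10 genes had a peak, where 94.0% of all protein-coding genes did. In the reproducible list 1 of 10 did, against 1.10%. In the lists of replicates 1, 2 and 4, 8 of the 10 genes had a peak each time, against 62.5%, 73.9% and 47.2% of protein-coding genes. A presence in the pooled list or in replicate 2 is therefore close to what most genes show.

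Agreement between libraries was narrower. A peak somewhere in the window in 2 or more libraries was found at 9 of 10 genes (65.1% of protein-coding genes) and in all 3 libraries at 5 of 10 (27.5%), namely daf-4, sma-2, sma-3, sma-4 and sma-9. Peaks that overlapped each other by 1 bp or more between libraries, joined into regions, were present in 2 or more libraries at 6 of 10 genes (30.6%) and in all 3 at 3 of 10 (5.28%): sma-2, sma-4 and sma-9. Summits in the regions of all 3 libraries spread over 996 bp at sma-2, 505 bp at sma-4, and 126 and 697 bp at sma-9. With summits required to lie within 100 bp, no region held all 3 libraries. The share over protein-coding genes is not given for that setting. Window length bears on the shares by overlap and by window. Of the 10 windows 7 were longer than the usual 10001 bp, and among the 6550 protein-coding genes with windows of 10004 bp or more 37.5% had a peak in all 3 libraries and 7.01% a region shared by all 3. Chromosome III carries 5 of the genes, and there the shares were 34.0% and 7.50%. How far length or chromosome accounts for the counts was not tested.

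**Figure D1:**
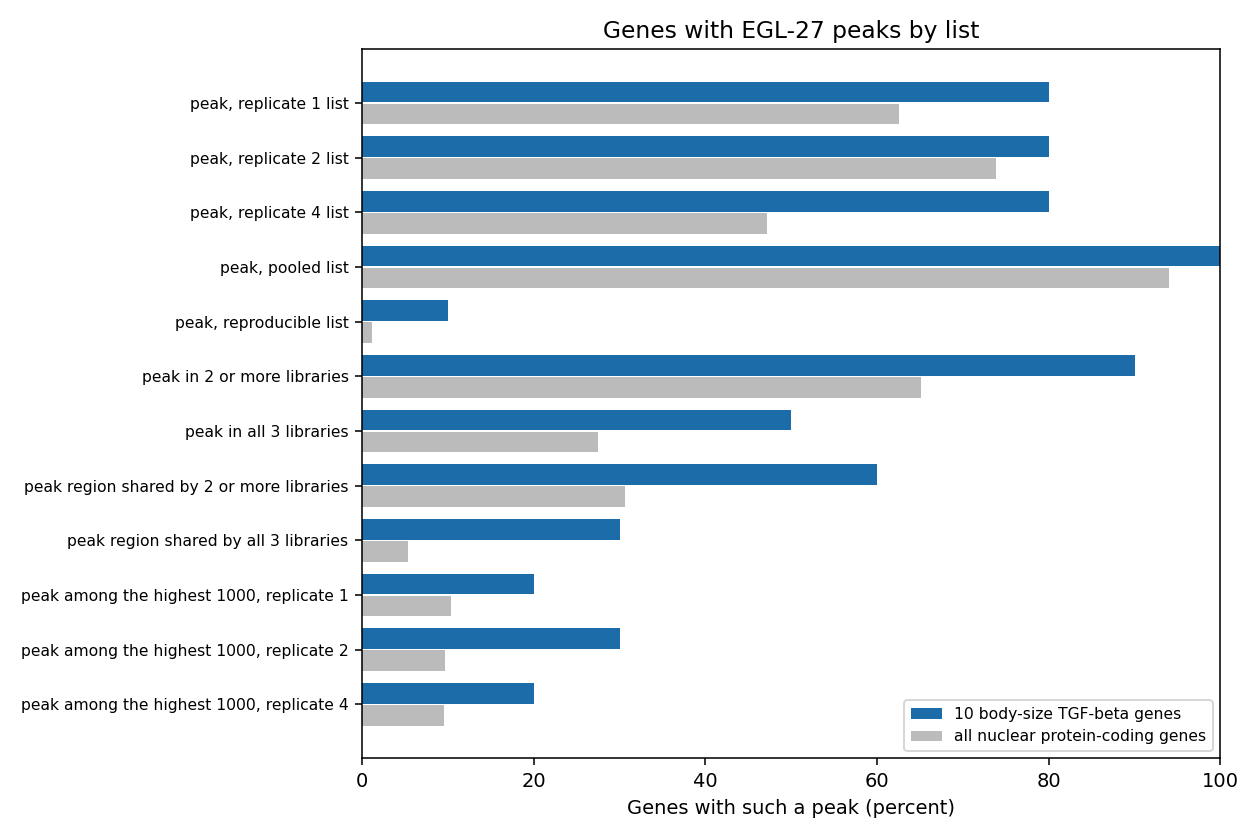
Percent of genes (horizontal axis) with a peak of the kind named at the left, for the 10 body-size TGF-beta genes (blue) and all 19973 nuclear protein-coding genes (grey). The pooled list covers nearly all genes of both groups, while a region shared by all 3 libraries is found at 3 of the 10 genes and at 5.28% of protein-coding genes.

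Among the highest 1000 peaks of each list, replicate 1 had peaks at sma-9 and lon-1, replicate 2 at daf-4, sma-3 and sma-9, and replicate 4 at sma-2 and sma-9. These are 2, 3 and 2 of 10 genes, where 10.3%, 9.62% and 9.58% of protein-coding genes had so high a peak. No gene other than sma-9 was in this upper range in more than 1 library.

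sma-9 encodes a zinc finger protein related to Schnurri, a nuclear partner of Smads in Drosophila, and is the largest gene of the group (chromosome X, 10769282 to 10782973, plus strand, 14 transcripts from 6 starts). Its reproducible peak lay between genes, 2869 bp upstream of the earliest start (10766198 to 10766627, signal 32.8, rank 11 of 102). The nearest start of any gene was that of the non-coding RNA gene T05A10.8, 2459 bp away, and sma-9 was the nearest protein-coding gene. In the pooled list the same peak was again at rank 11 of 30000, and only 22 protein-coding genes, sma-9 included, had a peak this high or higher in their window. On build ce10 the reproducible list is shorter, at 70 peaks, and held 1 peak on the X chromosome with the same signal to within 0.001, also at rank 11.

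The upstream peak was present in every library. It stood at rank 83 of 9666 in replicate 1 (signal 7.01), at rank 32 of 13686 in replicate 2 (signal 16.5) and at rank 844 of 6636 in replicate 4 (signal 4.19). Its summits lay 2857, 2753 and 2879 bp from the start, so that replicates 1 and 4 were 22 bp apart and replicate 2 lay nearer to the gene. The pooled list has a further peak on that side, 2664 bp from the start (signal 12.3, rank 588), whose deposited interval overlaps the first. The replicate 2 peak overlapped both pooled peaks, and its summit was closer to that of the further one. The rank was thus high in replicates 1 and 2 and moderate in replicate 4, where 8.09% of protein-coding genes had a peak as high, against 0.931% and 0.125% in replicates 1 and 2. Only 11 protein-coding genes (0.0551%) matched or exceeded the best rank of sma-9 in all 3 libraries, sma-9 included.

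The sequences under the 3 highest pooled peaks of sma-9, 100 bases to each side of the summit on the plus strand of WBcel235 (the same assembly as ce11), are shown because they carry the strongest signal of the group. Capitals mark matches, on either strand, to the words searched: GAGAGA, the palindrome CACGTG (an E-box), the GC-rich word GGGCGG, the palindromic Smad site GTCTAGAC, and 4 forms of the GATA site, which are AGATAA with its variant AGATAG, and TGATAA with its variant TGATAG. No word is contained in another, although GAGAGA can overlap itself.

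sma-9 upstream peak, rank 11 (chrX:10766313-10766513): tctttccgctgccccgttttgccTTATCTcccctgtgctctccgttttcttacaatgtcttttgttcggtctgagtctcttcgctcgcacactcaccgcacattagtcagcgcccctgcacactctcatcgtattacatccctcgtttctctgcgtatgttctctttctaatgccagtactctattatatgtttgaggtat

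sma-9 upstream peak, rank 588 (chrX:10766518-10766718): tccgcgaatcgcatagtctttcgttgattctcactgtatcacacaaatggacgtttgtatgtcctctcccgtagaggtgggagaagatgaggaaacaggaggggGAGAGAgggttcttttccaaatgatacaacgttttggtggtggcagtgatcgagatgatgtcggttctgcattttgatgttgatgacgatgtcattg

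sma-9 intron peak, rank 417 (chrX:10771176-10771376): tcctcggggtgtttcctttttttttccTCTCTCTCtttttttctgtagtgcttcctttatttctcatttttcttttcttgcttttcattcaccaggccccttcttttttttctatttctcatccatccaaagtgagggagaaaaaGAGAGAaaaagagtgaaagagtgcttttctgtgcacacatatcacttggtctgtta

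The window of the reproducible peak held 1 of the words, AGATAA, on the minus strand, a word found in 11.5% of pooled-list windows and 6.86% of reproducible ones. It held no GAGAGA, the word that marks 46.1% of reproducible windows, although the whole deposited interval of 430 bp did, as did 58.8% of reproducible intervals. The neighbouring window, at rank 588, had GAGAGA starting 4 bases right of its summit. That copy forms the last bases of the 430 bp interval of the reproducible peak, so it is counted in both. The intron window had GAGAGA on both strands, on the minus strand as a pair of overlapping matches. GC content was 47.3%, 46.3% and 37.3% in the 3 windows, against a median of 35.8% over pooled-list windows and 46.5% over reproducible ones.

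Inside sma-9, peaks gathered in the long intron between its first start and the internal starts 3799 and 3809 bp further on. At 10771039 to 10771490 peaks of replicate 2 (signal 8.84, rank 287) and replicate 4 (signal 3.65, rank 1346) had summits 17 bp apart, 1805 and 1822 bp upstream of the nearest internal start. Replicate 1 had no peak there. Its intron peak lay 689 bp upstream of that start (signal 6.19, rank 150), in a region from 10771702 to 10772828 that chained together peaks of all 3 libraries with summits up to 697 bp apart. The closest summits of different libraries in that region were 87 bp apart, and the best pooled-list rank there was 6542, so the region holds several nearby peaks rather than a single shared summit. Replicate 4 had a further peak of signal 4.00 (rank 979), 158 bp inside the transcripts that begin at the internal starts, with no peak of another library overlapping it. In all, sma-9 had 3, 6 and 5 peaks in replicates 1, 2 and 4, or 1.60, 3.21 and 2.67 per 10 kb of window, against means of 0.986, 1.36 and 0.657 over protein-coding genes. Among the single-library peaks of sma-9, that of replicate 2 at rank 10360 was classed as lying in a coding exon. The replicate 4 peak at rank 979 was classed as 5' untranslated. Its summit, 3967 bp from the first start, also lay inside an annotated coding exon, at 3809 to 4372 bp.

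**Figure D2:**
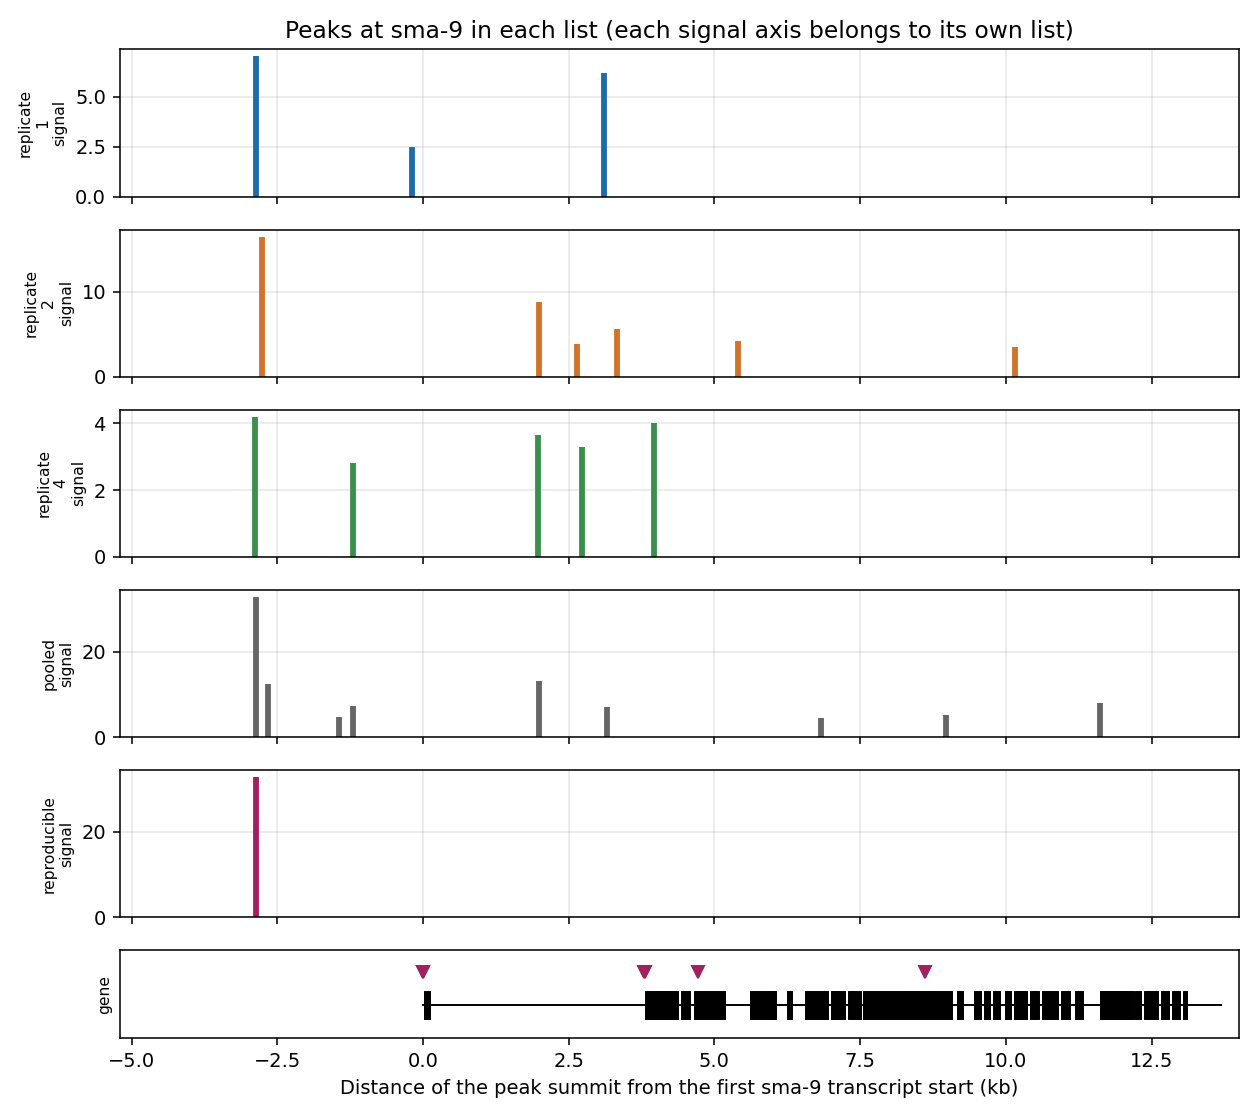
Peak summits at sma-9 by distance from its first transcript start (horizontal axis, kb), with the authors' signal of each peak as height on an axis of its own for each list; the bottom panel shows coding exons as black boxes and transcript starts as triangles. The upstream peak is the highest in every list, with signals of 7.01, 16.5 and 4.19 in replicates 1, 2 and 4, and further single-library peaks gather in the long intron before the internal starts.

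The 3 Smad genes lie on chromosome III, and each had peaks in all 3 libraries, but none in the reproducible list. sma-2 and sma-3 encode receptor-regulated Smads, and sma-4 encodes the common partner. At sma-2 (8749680 to 8757089, plus strand) the region 8748565 to 8750020 spanned the promoter and contained 7 single-library peaks. Its best ranks were 1869 in replicate 1 (signal 3.71), 6501 in replicate 2 (signal 4.19) and 675 in replicate 4 (signal 4.42). These are different places in a chain of overlapping peaks. Their summits lay 28 bp downstream of a sma-2 start, 88 bp upstream and 797 bp upstream, in that order. The last was nearer to a start of ugtp-1, at 182 bp. Replicate 4 had another peak 127 bp upstream (signal 4.34, rank 745). Replicate 2 was the low library here. The pooled peak with the highest signal (10.8, rank 1055) lay 100 bp upstream of the start, and 10.2% of protein-coding genes had a pooled peak this high. All 7 summits lie within the gene record of ugtp-1, which is read from the opposite strand, so the region cannot be assigned to sma-2 alone. A peak of replicate 1 beyond the 3' end (signal 4.17, rank 1072) lay inside aak-1, a catalytic subunit gene of AMP-activated kinase, whose start was nearer than any of sma-2.

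At sma-3 (6860974 to 6863968, minus strand) the pattern rested on replicate 2. Its peak 247 bp upstream of the start had signal 7.76 and rank 554, while the overlapping peak of replicate 1 had signal 2.18 and rank 8741, with its summit 283 bp away. Replicate 4 had a peak in a coding exon only (signal 2.02, rank 6553 of 6636). The pooled peak lay 250 bp upstream at rank 775 (signal 11.5), which after those of sma-9 is the highest pooled rank of the 10 genes. With its ranks in replicates 1 and 4 near the end of their lists, sma-3 had a strong peak in 1 library.

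At sma-4 (5816232 to 5820204, plus strand) replicate 2 had a peak right at the start, 12 bp inside the transcript (signal 6.56, rank 1118), that the other libraries lacked and the pooled list ranked 4196. The region shared by all 3 lay farther out, at 5812275 to 5813229, with ranks of 6592 (signal 2.45), 2003 (signal 5.79) and 2219 (signal 3.15) in replicates 1, 2 and 4. Its summits were 3727, 3355 and 3222 bp upstream of sma-4. Other annotated genes lie nearer: the non-coding RNA gene R12B2.12, 85 bp from the middle of the region, and the protein-coding gene R12B2.7, 2288 bp away. The shared region is therefore not nearest to sma-4.

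The windows at the best pooled peak of the 3 Smad genes are printed to compare them, with capitals as above. That of sma-2 stops at the last base before its transcript. All 3 are written in plus-strand letters, although sma-3 is a minus-strand gene.

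sma-2 promoter peak (chrIII:8749480-8749679): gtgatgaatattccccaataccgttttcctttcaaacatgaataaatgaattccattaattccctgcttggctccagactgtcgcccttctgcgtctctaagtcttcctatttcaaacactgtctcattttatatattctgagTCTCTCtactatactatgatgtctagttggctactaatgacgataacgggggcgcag

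sma-3 promoter peak (chrIII:6864118-6864318): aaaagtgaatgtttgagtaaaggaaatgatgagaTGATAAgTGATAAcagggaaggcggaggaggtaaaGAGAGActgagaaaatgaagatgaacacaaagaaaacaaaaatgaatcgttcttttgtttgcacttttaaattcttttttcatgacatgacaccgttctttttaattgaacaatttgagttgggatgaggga

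sma-4 upstream peak (chrIII:5812778-5812978): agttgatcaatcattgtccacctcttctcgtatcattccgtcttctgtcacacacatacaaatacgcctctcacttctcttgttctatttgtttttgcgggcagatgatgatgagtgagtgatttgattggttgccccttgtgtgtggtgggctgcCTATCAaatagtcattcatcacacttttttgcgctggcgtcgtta

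GAGAGA was present at sma-2, on the minus strand, and at sma-3, where TGATAA also occurred at 2 places a single base apart. The sma-4 window had TGATAG on the minus strand and no GAGAGA. These matches describe the letters under the peaks and do not show what binds there.

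The receptor genes had no region shared by all 3 libraries. daf-4 encodes the type II receptor, which also serves the dauer pathway (chromosome III, 5625135 to 5632323). Upstream of it, replicate 2 had a peak of signal 6.80 (rank 952) and replicate 1 an overlapping peak of signal 3.01 (rank 3771), 2467 and 2593 bp from the start. The peaks of replicate 4 in this window lay elsewhere, 3485 bp (signal 2.73, rank 3435) and 522 bp (signal 2.17, rank 6004) upstream. So 2 of the 3 libraries shared this upstream region, which also has a pooled peak at rank 2086 (signal 9.28).

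sma-6 encodes the type I receptor (chromosome II, 6324484 to 6327355). It had 1 peak in replicate 1 (signal 2.28, rank 7876), 2 peaks in replicate 2 (the better in an intron, signal 4.60, rank 4972) and none in replicate 4, and no region shared between libraries. Its highest pooled peak (rank 3796) lay 58 bp from the start of the neighbouring gene efr-3.

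sma-10 encodes a membrane protein with leucine-rich and immunoglobulin domains that promotes signalling through the receptors (chromosome IV, 274420 to 279943). Replicate 2 had a peak 33 bp inside the transcript (signal 6.41, rank 1248), and replicate 4 had one in a coding exon 991 bp from the nearest start (signal 3.53, rank 1488). Replicate 1 had none, and the peaks of the other libraries did not overlap. Both peaks were in the upper 25% of their lists, but the pooled list ranked its best peak here only 8635.

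The ligand and its binding protein had few peaks and low ranks in the single libraries. dbl-1 (chromosome V, 6758135 to 6760418) had 1 peak in replicate 1 (signal 2.46, rank 6497 of 9666), none in replicate 2 and 1 in replicate 4 (signal 2.05, rank 6382 of 6636). They overlapped, with summits 32 bp apart and 3411 and 3443 bp upstream of dbl-1. The non-coding RNA gene T25F10.7 starts 149 and 181 bp from these summits. The shared region was thus found at low ranks in both libraries, and its pooled peak had rank 3230 (signal 8.37).

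lon-2 encodes a glypican that binds DBL-1 and restrains signalling (chromosome X, 4738964 to 4749083). Its single peak in any library was that of replicate 2, in an intron 8763 bp from its start (signal 3.58, rank 10119 of 13686). The non-coding RNA gene C39E6.12 starts 538 bp from it. The window of lon-2 is 15120 bp long, and its 5 pooled peaks all stood at rank 13602 or further down the list.

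lon-1 encodes a secreted protein of the CRISP family whose expression the pathway represses (chromosome III, 5474476 to 5478005). It had 2 peaks in replicate 1, none in replicate 2 and 1 in replicate 4. The better peak of replicate 1 ranked 424 (signal 5.18) and lay in an intron near the end of the gene, 793 bp from the start of R02F2.10. The peak of replicate 4 (signal 2.48, rank 4419) lay 2863 bp upstream, so no region was shared.

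**Figure D3:**
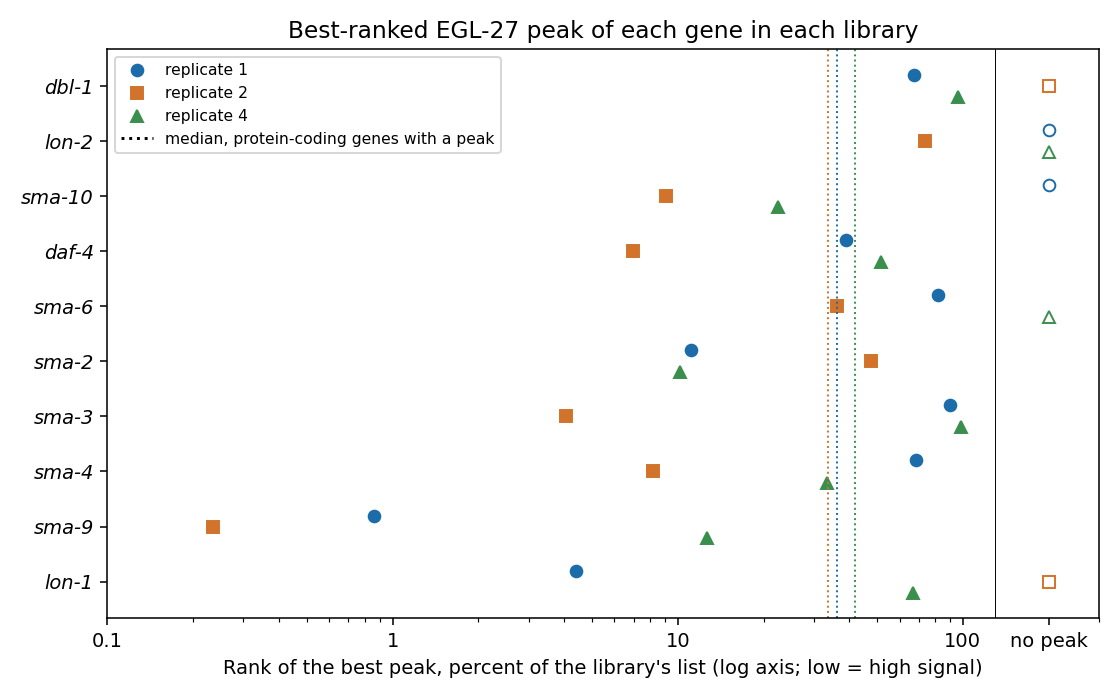
Rank of the best peak of each gene as a percent of the list's length (horizontal log axis, low values are high signals) in replicates 1 (circles), 2 (squares) and 4 (triangles), with open symbols for genes without a peak and dotted lines for the median over protein-coding genes with a peak. sma-9 is farthest to the left in replicates 1 and 2, at 0.859% and 0.234%, while sma-2 at 10.2% is ahead of it in replicate 4 at 12.7%.

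Across the 8 genes with a peak in a library, the best rank had a median of 53.1% of the list in replicate 1, 8.64% in replicate 2 and 42.6% in replicate 4. Over all protein-coding genes with a peak the medians were 36.3%, 33.7% and 41.7%. In replicate 1 the 8 genes ran from 0.859% to 90.4%, with sma-9, lon-1 and sma-2 at or ahead of 11.1% and daf-4 at 39.0%. Of these, the lon-1 peak was nearer to the start of R02F2.10, and the sma-2 peak lay inside aak-1. At the sma-2 promoter the best peak of replicate 1 stood at 19.3%. The libraries did not put the genes in the same order: sma-3 stood second in replicate 2 and last of the genes with a peak in replicates 1 and 4. A gene counted only because it had a peak, so these medians describe the genes with peaks and not the whole list of 10.

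**Figure D4:**
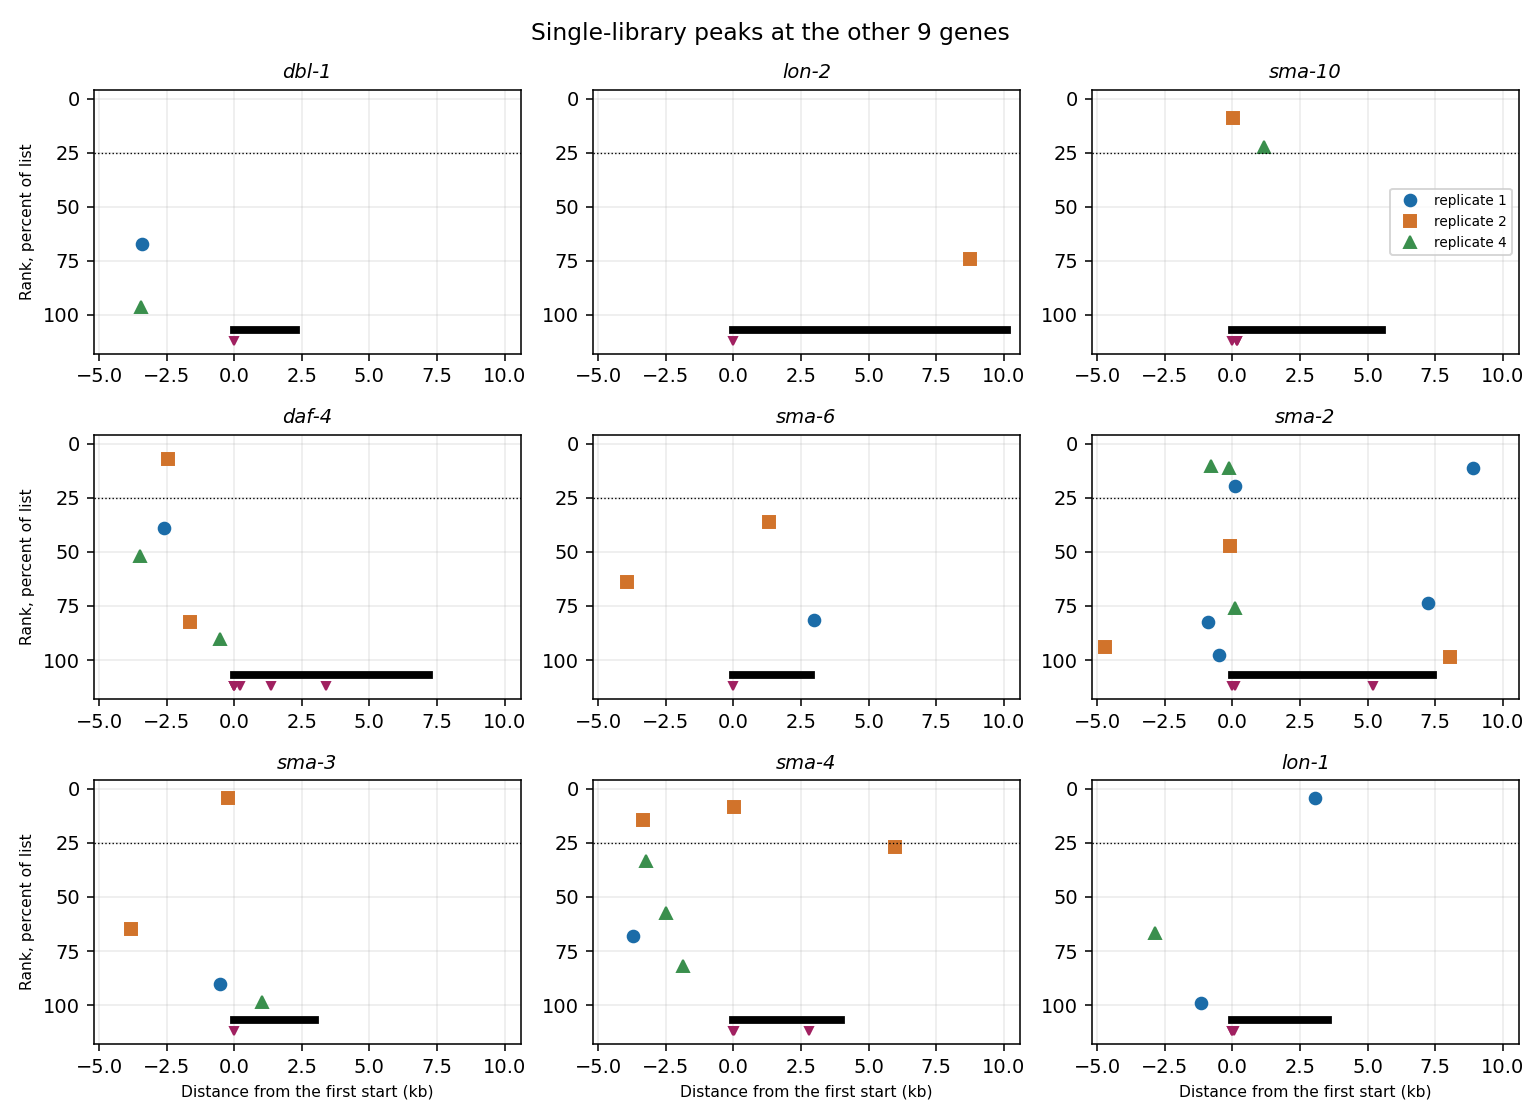
Summits of single-library peaks at the 9 genes other than sma-9, by distance from the first transcript start (horizontal axis, kb) and rank as a percent of the list (vertical axis, high signals at the top); bars show the gene, triangles its starts and the dotted line the limit of the upper 25%. Promoter-near peaks of replicate 2 stand high at sma-3, sma-4 and sma-10, where the other libraries have lower-ranked peaks or none, and the sma-2 promoter has peaks of all 3 libraries.

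Of the 52 single-library peaks, 29 lay upstream outside the gene, 4 downstream, 11 in introns, 3 in coding exons and 5 in untranslated exon parts. A summit that was 5' untranslated in any transcript was counted so even if coding in another, as with the sma-9 peak of replicate 4 at rank 979. Within 500 bp of a start of the gene lay 11. For 38 the gene was the one with the nearest protein-coding start, 11 lay inside another protein-coding gene, and for 19 the nearest start of all was that of a non-coding RNA gene. In replicates 1, 2 and 4, 5 of 15, 8 of 20 and 6 of 17 peaks were in the upper 25% of their list by signal. At the 5000 bp limit, the pooled peak farthest inside was 4956 bp from a start of daf-4 (signal 5.41) and the nearest outside was 5645 bp from sma-6 (signal 4.69). In replicate 1 the farthest inside was 3727 bp from sma-4 (signal 2.45) and the nearest outside 7256 bp from sma-6 (signal 2.56). In replicate 2 they were 4729 bp from sma-2 (signal 3.21) and 6478 bp from lon-2 (signal 4.99), and in replicate 4 they were 3485 bp from daf-4 (signal 2.73) and 6255 bp from lon-1 (signal 3.67). In each of the 3 libraries the peak outside the limit thus had a higher signal than the one inside, and in the pooled list a lower one.

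Sequence words were counted over the 45 pooled-list windows of the 10 genes, with the same count over all 30000 as background. GAGAGA was present in 13 (28.9%, against 14.2%), TGATAA in 10 (22.2%, against 18.8%, but 8.89% against 9.77% with 50 bases to each side), AGATAA in 8 (17.8%, against 11.5%), AGATAG in 5 (11.1%, against 6.13%) and TGATAG also in 5 (11.1%, against 7.88%). The E-box CACGTG was present in none (against 3.90%), nor was GGGCGG (against 3.78%) or the Smad site GTCTAGAC (against 0.183%). In the single-library windows GAGAGA was present in 4 of 15, 7 of 20 and 6 of 17 for replicates 1, 2 and 4, against 15.2%, 14.8% and 17.7%. Neighbouring peaks overlap and share sequence, so these counts are not over independent windows. Every 36-base word in the 45 windows occurred at a single place in the nuclear genome.

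Further TGF-beta genes, listed from general knowledge with earlier results known, were counted by the same rule. Of 17 modulators and regulators of DBL-1 signalling, 10, 15 and 11 had a peak in replicates 1, 2 and 4, 7 in all 3, and none had a reproducible peak. The shares over all protein-coding genes were those given above, 62.5%, 73.9% and 47.2% for the libraries, 27.5% for all 3 and 1.10% for the reproducible list, so the 10 of 17 in replicate 1 is no more than genes in general show. The 4 with peaks in all 3 libraries and the highest pooled signal were rol-6, a cuticle collagen gene (best ranks 6406, 8444 and 1343 in replicates 1, 2 and 4), kin-29, a salt-inducible kinase gene (3100, 1022 and 364), bli-4, a proprotein convertase gene (1741, 5289 and 6061), and tsp-21, a tetraspanin gene (608, 8781 and 2820). Of these, kin-29 had a region shared by all 3 libraries.

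Of 9 genes of the dauer branch and other TGF-beta ligands, 7, 9 and 3 had a peak in replicates 1, 2 and 4, 3 in all 3 libraries, and 1 had a reproducible peak. Against the same shares over protein-coding genes, the 3 of 9 in replicate 4 lies below the 47.2% and the 3 of 9 in all 3 libraries is near the 27.5%. That gene was daf-5, which encodes a Ski/Sno-related nuclear factor of the dauer pathway. Its peak lay in an intron (II, 14040191 to 14040620, signal 22.4, rank 56 of 102), 2685 bp upstream of an internal start, and overlapped peaks of rank 1923, 565 and 6 in replicates 1, 2 and 4. daf-3, the partner Smad of that branch, had best ranks of 764, 3222 and 1511 with no shared region, and daf-1, its type I receptor, had 4391, 11541 and 4660. daf-14 and tig-2 had peaks in replicates 1 and 2 and none in replicate 4. With a window of 24584 bp daf-5 had more room for peaks than most genes.

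The genes most like sma-9 were found by the distance between best ranks, as percents of the 3 lists, among 5492 protein-coding genes with a peak in every library and none shared with sma-9. Y50D7A.1 and Y50D7A.10, neighbours counted from the same peaks, were nearest at 2.54 percentage points, with ranks of 308, 35 and 911 in replicates 1, 2 and 4. vhp-1, a MAP kinase phosphatase gene, followed at 2.69 points with ranks of 267, 147 and 731. All 3 had a reproducible peak in their window, but Y50D7A.1 and Y50D7A.10 do not count separately. The next nearest gene, at 2.84 points, had no reproducible peak. The likeness rests on 3 libraries and on rank alone.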

How the data were processed

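Peak lists of 3 EGL-27 ChIP-seq libraries from whole L4 larvae, treated as 1 group, were used as the authors deposited them, on build ce11. The deposited README texts give each single-library list as made from that library's alignment, the pooled list from all 3 alignments, and the reproducible list from the pooled and single-library lists. The sources used here name no aligner, peak caller or IDR threshold. The signal column is the authors' deposited value per peak, never below 0. The authors' q column falls below 0 in the pooled list, so it was taken as a score and served only in an alternative ranking. Depth is unknown.

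Summits were set against Ensembl release 115 (WBcel235, the ce11 assembly; no peak ended beyond its chromosome) with Python 3.11.15 and NumPy 2.4.6. Coordinates are 1-based. Sequences were read from the RefSeq copy of WBcel235. The window and region counts were tested on simulated peaks. The members, lists and words were chosen with earlier results of these data known. The genes named are the 10 members; in each further list those with a reproducible peak, then up to 4 with peaks in most libraries, ties by pooled signal; the genes with the nearest start to a described peak; and the 3 most like sma-9. Other genes that hold a peak were named after their values were seen. There is no contrast, so no test was made. Alternatives covered window size, gene body, list depth, overlap, ranking column, nearest-gene assignment, word windows and leaving out each replicate.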

Additional observations from a re-analysis of the deposited data

How the results depend on the processing

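The reproducible peak of sma-9 depends on the window, since it lies 2869 bp upstream: with 2000 bp from a start, or the gene body alone, 0 of 10 genes had a reproducible peak, and 1 with every other setting run, including the ce10 list and assignment to the nearest protein-coding gene. At 2000 bp 3 genes had a peak in all 3 libraries and 4 regions were shared by 2 or more; at 10000 bp 14 regions were shared. In the gene body alone 1 gene had a peak in all 3 libraries and 3 genes in 2 or more. The shares of protein-coding genes with a peak in replicates 1, 2 and 4 moved too. They were 39.9%, 49.9% and 28.7% at 2000 bp, 83.1%, 90.9% and 68.1% at 10000 bp, and 22.4%, 28.0% and 14.7% in the gene body. In the upper 25% of each list they were 23.1%, 29.2% and 15.4%. Shares for 2 or more or all 3 libraries are not given at these settings, so the member counts are a description only. In the upper 25% of each list 1 gene had a peak in all 3 libraries, 3 in 2 or more, and 4 regions were shared; among the highest 1000 peaks 2 genes had a pooled peak (9.66% of protein-coding genes did), 1 gene a peak in 2 or more and in all 3 libraries, and 1 region was shared. The 8 regions shared by 2 or more libraries became 5 without replicate 1, 4 without replicate 2 and 6 without replicate 4, and the genes with a peak in both remaining libraries numbered 6 to 7. Requiring summits within 100 bp gave 7 regions in 2 or more libraries, but these are not 7 of the same 8. At daf-4, sma-3 and sma-4 the closest summits of different libraries were 126, 283 and 133 bp apart, so no shared region was left there. The sma-2 region split into several, and no region held all 3 libraries. Ranked by the q column, the best peak of sma-9 in replicate 1 was the intron peak at rank 295, with the upstream peak at 425, and the other 23 of 24 best ranks moved by less than 1.5 times. In the pooled list the q column ordered peaks otherwise. The peak with the highest signal stayed at rank 11 at sma-9 and moved from 775 to 804 at sma-3. That peak moved from 1055 to 3500 at sma-2, from 1744 to 17978 at sma-4, from 2086 to 21682 at daf-4 and from 3230 to 27937 at dbl-1. At the last 3 genes another pooled peak was best by the q column, at rank 12475 for sma-4, 9441 for daf-4 and 3955 for dbl-1. With 50 bp to each side of the summit GAGAGA was in 9 of 45 pooled windows (20.0%, against 7.73%), and in whole peaks in 20 (44.4%, against 25.6%). TGATAA went from above to below its background, with 4 windows at 50 bp (8.89%, against 9.77%), and was in 18 of 45 whole peaks, against 35.5% of all. AGATAA was in 4 windows at 50 bp (8.89%, against 5.94%), and AGATAG and TGATAG were in 3 each (6.67%, against 3.16% and 3.97%). In whole peaks AGATAG was in 10 (22.2%, against 12.2%), TGATAG in 9 (20.0%, against 16.2%), CACGTG in 2 (4.44%, against 7.78%) and GGGCGG in 2 (4.44%, against 7.59%). No paired analysis was possible because there is 1 group. Assignment to the nearest gene in shared counts and the ce10 match were chosen after seeing the data. Unknown depth limits what an absent peak shows.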
